A study of Mus musculus with 12 samples.

Results

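Carboxylesterases are serine hydrolases of the endoplasmic reticulum and plasma that split ester and amide bonds in drugs, prodrugs, pesticides and acylglycerols. Hepatocytes are their main source in the mouse, where the genes have multiplied into tandem clusters, and the Ces1, Ces2 and Ces3 families differ in their substrates. In mouse liver some members also take part in mobilising stored triacylglycerol for very low density lipoprotein (VLDL), and levels of several members are known to differ between the sexes.

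The 9 genes described here were chosen by symbol and are Ces1c, Ces1d, Ces1e, Ces1f, Ces1g, Ces2a, Ces2e, Ces3a and Ces3b. They are not all the carboxylesterases of these livers, and Ces1b, outside the 9, averaged 169 to 439 CPM over the 4 groups. They are 9 of the 56748 genes listed in the count table, and all 9 passed the filter on low counts. The study compared poly(A)-selected bulk liver RNA of Cyp2e1 knockout and wild type mice of both sexes, in 12 libraries. The groups were KO males and KO females of the line 129/Sv-Cyp2e1tm1Gonz/J, which carries a targeted allele of Cyp2e1, and WT males and WT females of the line 129S1/SvImJ. Each group had 3 biological replicates. All mice were 16 weeks old, were co-housed and ate normal chow, and no group received a treatment. Knockout and wild type are different lines, so an effect of the allele and a difference between the lines cannot be told apart. In bulk tissue, fewer cells of a type and less RNA per cell cannot be told apart either.

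Library totals ran from 15167730 to 25082532 counts. Cyp2e1, the targeted cytochrome P450, stood at 318 to 403 CPM (counts relative to library size) in KO males, against 10370 to 11480 CPM in WT males. It stood at 230 to 323 CPM in KO females, against 6213 to 7076 CPM in WT females, so the genotype labels and the targeted gene match in all 12 libraries. Of the hepatocyte markers checked, 7 of 8 were listed, and all 7 were detected in every group. Levels below are CPM of library sizes scaled by the trimmed mean of M-values (TMM). Fold changes are on the log2 scale, each ± its standard error, and come from a quasi-likelihood fit of the 12 libraries with edgeR. A difference counts as called where the p adjusted over the 14003 genes tested was under 0.05.

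All 9 genes lie on chromosome 8 (mm39), in 2 blocks. The Ces1 genes run on the minus strand, with Ces1c at 93825643 to 93857911, Ces1d at 93892696 to 93924466 and Ces1e at 93927846 to 93956247. Ces1f follows at 93982864 to 94006375 and Ces1g at 94028997 to 94063936. The Ces2 and Ces3 genes run on the plus strand, with Ces2a at 105460635 to 105468266, Ces2e at 105652892 to 105661304, Ces3a at 105775233 to 105785045 and Ces3b at 105810385 to 105820561. Each is annotated as protein-coding, and each value below is a sum over the whole gene.

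The stretch around the codon of the active-site serine is shown because it is the chemistry that the family shares. A script found it as the single G-x-S-x-G stretch of each coding sequence, in the GENCODE M21 annotation of GRCm38. The serine codon is in capitals, and 4 of the 9 stretches are printed.
Ces1d: atctttggagagTCAgcaggaggtttc
Ces2a: atatttggagtcTCAgcaggaggtaca
Ces3a: atcttcggtaacTCTgctggaggcatt
Ces3b: atcttcggtaacTCTgctggaggcatg
The serine codon was TCA in the 7 Ces1 and Ces2 members and TCT in Ces3a and Ces3b. These stretches lie on GRCm38 chromosome 8, for example at 93187758 to 93187784 on the minus strand for Ces1d and at 105051580 to 105051606 on the plus strand for Ces3a.

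The ends of the coding sequences are shown because this is where the members differ in a feature known to set where the protein stays. Carboxylesterases held in the endoplasmic reticulum are known for a retrieval signal of the His-x-Glu-Leu type at the end of the protein, and Ces1c is known as the form secreted into plasma. The last 4 codons before the stop are in capitals.
Ces1c: cacACAGAACACAAAtga
Ces1d: gaaCATGTTGAGCTCtga
Ces1e: gaaCACACTGAGCTGtga
Ces2a: aagCATGCAGAGCTGtag
Ces3a: gttCCAGAGGAGCTCtga
Ces3b: gttCCAGAGGAGCTCtga
The first of these codons is CAT or CAC in Ces1d, Ces1e and Ces2a, and also in Ces1f, Ces1g and Ces2e. It is ACA in Ces1c and CCA in Ces3a and Ces3b. Ces3a and Ces3b end in the same letters, and they are the closest pair of the 9, with 95.28% identity over the coding sequence.

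**Figure D1:**
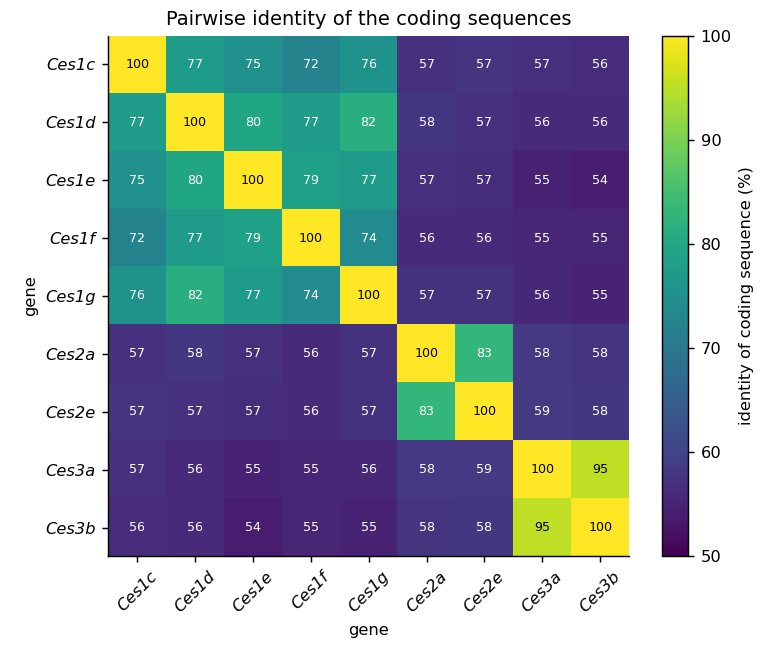
Identity of the coding sequences in percent for each pair of the 9 genes (both axes list genes; colour and printed number give the identity). Ces3a and Ces3b share 95.28%, Ces2a and Ces2e 83.155%, and the Ces1 genes 72.359% to 81.567% among themselves.

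How far the members can be told apart in short reads varies. Of the stretches of 75 bases in each member's transcript, 18.256% in Ces3a and 15.371% in Ces3b also occur in the other of the pair, so their counts may be split between them in part. For Ces2a, 14.846% also occur in the pseudogene Gm7208, which held 0 to 4 counts per library. For Ces1c the share was 6.727%, mostly with Ces1b, and for Ces1e it was 1.051% and for Ces2e 0.343%. No such stretch was shared for Ces1d, Ces1f or Ces1g. Ces1d overlaps Gm45909 on the same strand, which held 2 to 66 counts per library, and Ces3a overlaps Gm45724 on the other strand, which held 0 to 23 counts.

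The 9 genes together made up 7985 ± 688 CPM in KO males, against 7595 ± 122 CPM in WT males (SD, n = 3 each). In KO females they made up 5739 ± 1160 CPM, against 7898 ± 484 CPM in WT females. The KO female libraries ran from 4416 to 6596 CPM and lay below all WT female libraries, which ran from 7489 to 8432 CPM. The ratio was 0.727 in females and 1.05 in males, with exact two-sided permutation p-values of 0.1 and 0.5. The smallest p that 3 against 3 libraries can give is 0.1. With library sizes not scaled by TMM the female groups overlapped, at 4697 to 7175 CPM in KO females, against 7126 to 7957 CPM in WT females, and the ratio was 0.854 (exact permutation p = 0.3). KO males exceeded KO females by a ratio of 1.39 (exact permutation p = 0.1), and the ratio of WT males to WT females was 0.962 (exact permutation p = 0.5).

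**Figure D2:**
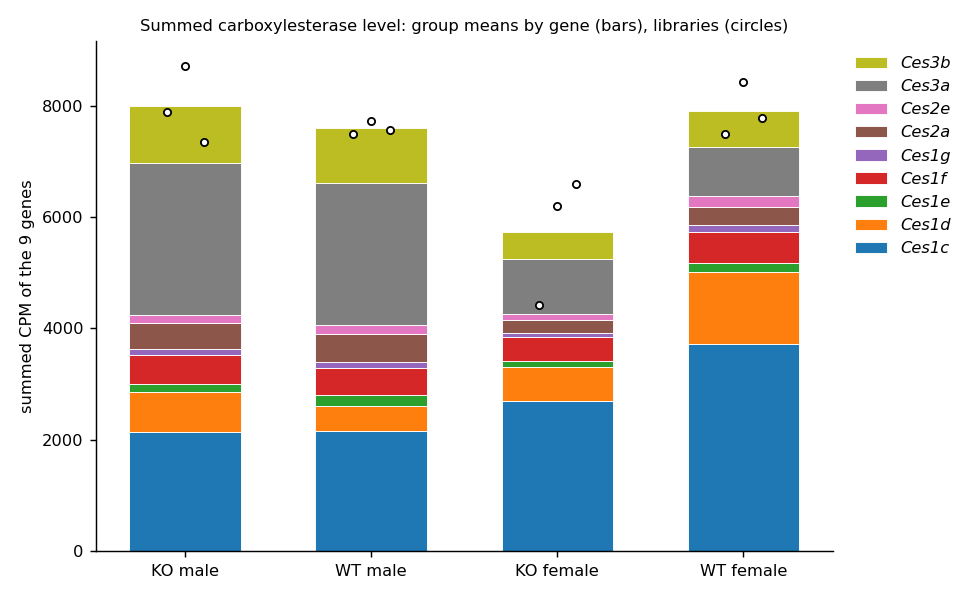
Summed level of the 9 carboxylesterases in CPM on the y axis for the 4 groups on the x axis, with bars stacked from the group means of each gene and circles for the 3 libraries of each group. Ces1c is the largest piece in both female groups (46.9% of the sum in KO and 47.1% in WT) and Ces3a the largest in both male groups (34.2% in KO and 33.5% in WT).

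The sum was made of different genes in males and females. Per kilobase of gene length, Ces3a led in males, with a level of 1040 ± 17.6 CPM per kb in KO males and 967 ± 50.9 in WT males. Ces1c led in females, with 1160 ± 296 CPM per kb in KO females and 1600 ± 244 in WT females. Ces1c came second in males, and in WT males its range overlapped that of Ces3a. The second place fell to Ces3a in KO females (376 ± 80.6 CPM per kb) and to Ces1d in WT females (547 ± 97.7 CPM per kb). Ces1g was lowest in all 4 groups, from a mean of 30.5 CPM per kb in KO females to 53.8 in WT females, with Ces2e and Ces1e next above it. Neighbours whose library ranges overlapped in KO females were Ces3a with Ces1d, Ces1d with Ces3b, Ces1e with Ces2e and Ces2e with Ces1g, whereas in WT females only Ces1e and Ces2e overlapped. In KO males the overlapping neighbours were Ces3b with Ces1d, Ces1d with Ces2a, Ces1e with Ces2e and Ces2e with Ces1g. In WT males they were Ces3a with Ces1c, Ces2a with Ces1d, and Ces1e with Ces2e. Among all genes by CPM, without scaling for length, Ces1c ranked 39 in KO females and 30 in WT females, and Ces3a ranked 45 in KO males and 51 in WT males.

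**Figure D3:**
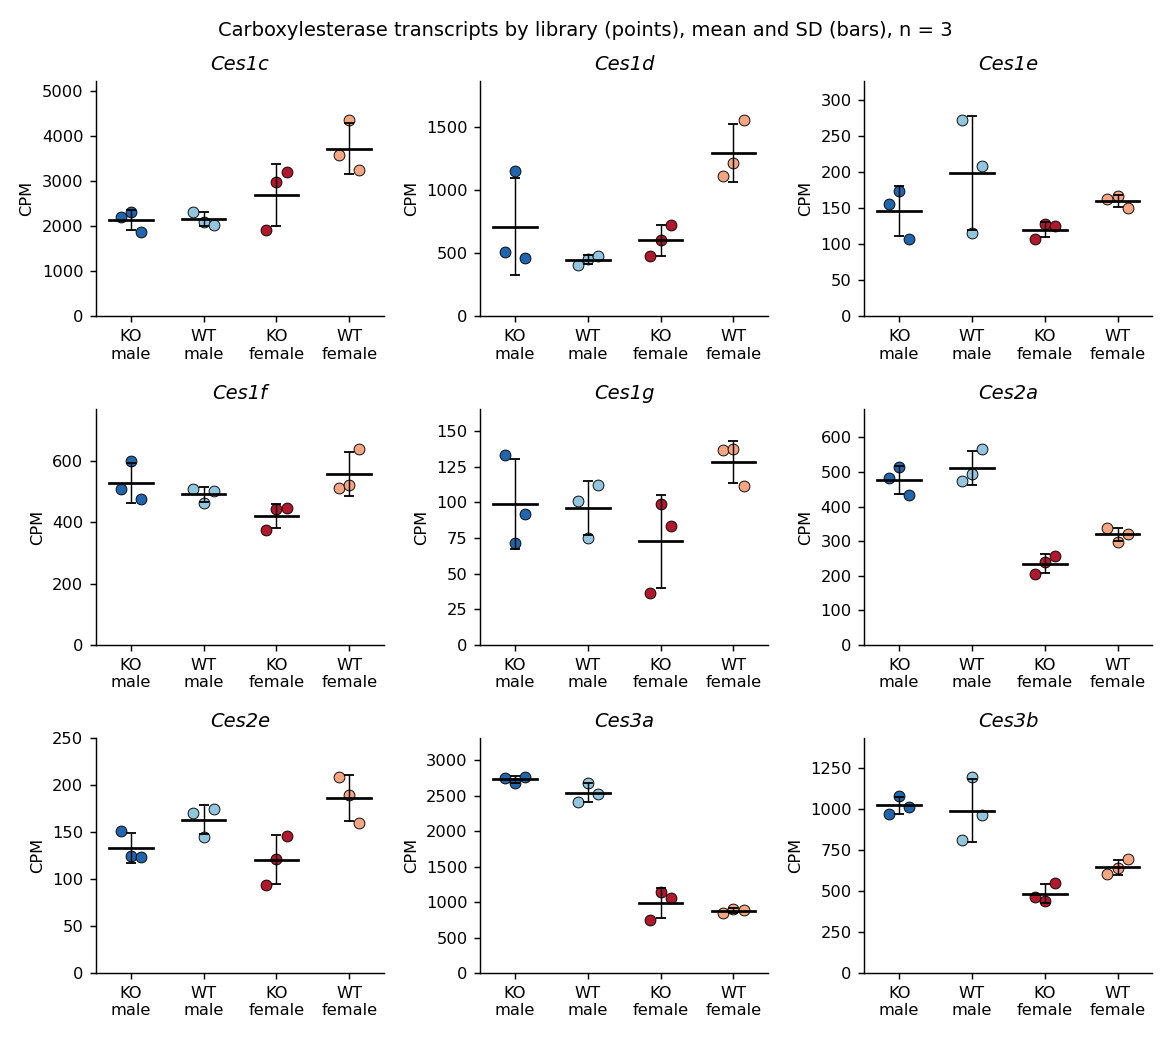
CPM on the y axis of each of the 9 genes for the 4 groups on the x axis, with 1 point for each library, a bar at the mean and a whisker of 1 SD on either side (n = 3). Ces3a separates males (2416 to 2761 CPM) from females (749 to 1150 CPM), and KO male replicate 2 stands above the other KO males for Ces1d, with 1158 CPM.

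Ces3a had the largest male over female value of the 9 genes in both lines. Ces3a, a hydrolase of the Ces3 family known as male-predominant in mouse liver, had 2756, 2678 and 2761 CPM in KO males and 2416, 2681 and 2525 CPM in WT males. It had 749, 1150 and 1067 CPM in KO females and 847, 909 and 890 CPM in WT females. Every male library lay above every female library, in both lines. Its log2 fold change, male over female, was 1.47 ± 0.18 in KO (adjusted p = 0.000197) and 1.53 ± 0.18 in WT (adjusted p = 0.000136), and it was called whichever of the 6 libraries compared was left out.

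Ces3b, its near copy, had 973, 1081 and 1016 CPM in KO males and 815, 1196 and 966 CPM in WT males. It had 463, 443 and 550 CPM in KO females and 605, 640 and 697 CPM in WT females. Males lay above females in both lines without overlap, but only the KO difference passed the test. The log2 fold change was 1.08 ± 0.18 in KO (adjusted p = 0.00253) and 0.62 ± 0.18 in WT (adjusted p = 0.0697). The WT difference passed at adjusted p = 0.0122 by DESeq2. In edgeR it passed without TMM (adjusted p = 0.0493) and with the trend on gene length taken out of each library (adjusted p = 0.033). It passed in 0 of the 6 fits with a library left out, where the adjusted p ran from 0.0695 to 0.277. The KO and WT values of Ces3b are not shown to differ, since the test of that difference gave a log2 value of 0.46 ± 0.25 (adjusted p = 0.269).

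Ces2a, a member of the drug and acylglycerol hydrolysing Ces2 family, had 483, 515 and 433 CPM in KO males and 474, 495 and 567 CPM in WT males. It had 205, 241 and 258 CPM in KO females and 338, 299 and 322 CPM in WT females. Males were again above females without overlap, by a log2 fold change of 1.02 ± 0.16 in KO (adjusted p = 0.0017) and 0.68 ± 0.16 in WT (adjusted p = 0.0266). The WT call was lost whichever of the 6 libraries was left out, with adjusted p-values from 0.0622 to 0.123. The KO calls of Ces2a, Ces3a and Ces3b were each kept in all 6 such fits.

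Ces1d, the triacylglycerol hydrolase known to release stored lipid for VLDL, ran the other way in wild type. It had 511, 1158 and 467 CPM in KO males and 409, 459 and 483 CPM in WT males. It had 479, 603 and 728 CPM in KO females and 1113, 1221 and 1556 CPM in WT females. The WT females stood above the other 3 groups, and only KO male replicate 2 came into their range. In WT, Ces1d fell by 1.53 ± 0.31 on the log2 scale in males relative to females (adjusted p = 0.0107). In KO the male over female value was 0.24 ± 0.30 (adjusted p = 0.655), and -0.30 without KO male replicate 2. The WT call was lost without WT female replicate 3 (adjusted p = 0.0529) and without WT male replicate 1 (adjusted p = 0.0631).

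Ces1c, the plasma esterase, was likewise lower in WT males, with 2325, 2098 and 2031 CPM, than in WT females, with 3569, 4348 and 3247 CPM. The log2 fold change was -0.79 ± 0.21 (adjusted p = 0.0495), just inside the threshold. It passed in none of the 6 fits with a library left out, where the adjusted p ran from 0.0725 to 0.202. Ces1c had 2213, 2316 and 1877 CPM in KO males and 1909, 2977 and 3191 CPM in KO females, where the groups overlapped and the log2 value was -0.33 ± 0.21 (adjusted p = 0.352).

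Counted over the 9 genes, the male over female comparison called 3 higher and 0 lower in KO, against 2.95% higher and 2.45% lower among all genes tested. In WT it called 2 higher and 2 lower, against 2.1% higher and 2.39% lower among all genes. In KO, 4 members lay wholly above in males (Ces1f, Ces2a, Ces3a and Ces3b), where 14% of all genes did. In WT, 3 lay wholly above (Ces2a, Ces3a and Ces3b) and 3 wholly below (Ces1c, Ces1d and Ces1f), where 13.4% and 13.5% of all genes did. Without TMM the Ces1f groups overlapped in both lines, and the other separations held. The median male over female log2 value of the 9 was 0.33 in KO and -0.18 in WT, against -0.04 and -0.01 over all genes tested. Without TMM the KO medians were 0.17 for the 9 and -0.18 for all genes, and genes called in KO split into 316 higher and 430 lower, against 413 higher and 343 lower with TMM.

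Promoter sequence is shown for Ces2a and Ces3b, the male-higher members that have an entry in the RefSeq promoter table (GRCm38.p6), which matched 6 of the 9 genes. Each window runs from 250 bases before to 50 bases after the start. The motifs searched on both strands were TTCNNNGAA (STAT5), ATCGAT and ATCAAT (HNF6), CAAAGTCCA (HNF4A), GTTAAT (HNF1), a pair of nuclear receptor sites spaced by a single base, TTGCNNAA (C/EBP) and TATAAA, with no overlap between the matches marked. Of all 32851 promoters of the same length in the table, 0.925% held ATCGAT, 7.54% held ATCAAT, 0.475% held CAAAGTCCA and 0.04% held the nuclear receptor pair. Matches are in capitals.
Ces2a: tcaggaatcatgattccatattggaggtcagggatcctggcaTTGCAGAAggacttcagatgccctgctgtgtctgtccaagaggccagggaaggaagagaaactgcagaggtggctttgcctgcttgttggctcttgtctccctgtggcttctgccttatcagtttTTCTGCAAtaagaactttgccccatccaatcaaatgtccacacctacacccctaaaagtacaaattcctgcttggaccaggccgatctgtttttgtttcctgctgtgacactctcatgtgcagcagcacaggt
Ces3b: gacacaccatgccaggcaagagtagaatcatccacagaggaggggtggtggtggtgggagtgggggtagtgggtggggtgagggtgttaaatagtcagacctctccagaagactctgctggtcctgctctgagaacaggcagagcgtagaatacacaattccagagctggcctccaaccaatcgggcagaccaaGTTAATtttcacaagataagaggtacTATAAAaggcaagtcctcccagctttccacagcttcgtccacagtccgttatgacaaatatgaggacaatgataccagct
The Ces2a window lies at chr8:104733753-104734052 and the Ces3b window at chr8:105083505-105083804 (GRCm38.p6), both on the plus strand. Ces2a held the C/EBP letters at 2 places, and 10.797% of all 32851 windows hold them. Ces3b held the HNF1 letters, as 7.099% of windows do, and TATAAA, as 13.616% do. Neither held the STAT5 letters, which 8.298% of windows hold. These are matches of letters only.

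In females, mean levels of 8 of the 9 carboxylesterases were lower in the knockout line, and how far the groups lay apart depended on the scaling of the libraries. With TMM, every KO female library lay below every WT female library for Ces1c, Ces1d, Ces1e, Ces1f, Ces1g, Ces2a, Ces2e and Ces3b, where 27.1% of all genes lay wholly lower. Ces1d, Ces2e and Ces2a passed the test, so 3 of 9 fell and 0 rose, against 18.8% lower and 17.7% higher among all genes. The median log2 value of the 9 was -0.45, against 0.05 over all genes tested. With library sizes not scaled by TMM, only Ces1d and Ces2a of the 9 lay wholly lower, where 20% of all genes did, and Ces1c, Ces1e, Ces1f, Ces1g, Ces2e and Ces3b overlapped. Ces2a then stood at 217.5 to 280.7 CPM in KO females, against 282.1 to 325.7 CPM in WT females. The medians were -0.22 and 0.27 at that scaling, only Ces1d was called, and all genes called split into 3592 higher and 1830 lower, against 2479 higher and 2637 lower with TMM. Ces3a was the exception, and its groups overlapped at a log2 value of 0.16 ± 0.17 (adjusted p = 0.473).

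The fall was largest for Ces1d, at -1.10 ± 0.31 on the log2 scale (adjusted p = 0.0182). Its mean was 603 ± 125 CPM in KO females and 1297 ± 231 CPM in WT females (SD, n = 3 each). It stayed called without KO female replicate 3 (adjusted p = 0.0415) and without WT female replicate 1 (adjusted p = 0.0301). It was not called without KO female replicate 1 (0.0552), KO female replicate 2 (0.0658), WT female replicate 2 (0.0577) or WT female replicate 3 (0.0600), all adjusted p-values.

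Ces2e, another Ces2 family hydrolase, had 94, 122 and 146 CPM in KO females, against 208, 189 and 160 CPM in WT females. It fell by 0.62 ± 0.19 on the log2 scale (adjusted p = 0.0251). The gap between the highest KO and the lowest WT library was small, and the call held only without KO female replicate 3 (adjusted p = 0.0408) or WT female replicate 3 (adjusted p = 0.0414) among the 6 fits that leave a library out, where the other 4 gave 0.0768 to 0.0784. Ces2a fell by 0.45 ± 0.16 (adjusted p = 0.043), and none of those 6 fits called it, with adjusted p-values from 0.0618 to 0.12.

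The other 5 lower members had log2 values from -0.82 to -0.41 and did not pass by edgeR. By DESeq2, Ces1f (adjusted p = 0.0221), Ces1g (0.0364) and Ces3b (0.0354) passed, and Ces1c (0.0542) and Ces1e (0.212) did not. The values that follow are those of edgeR. Ces1g, an esterase that acts on hepatic lipids, had 36, 99 and 84 CPM in KO females, against 137, 138 and 111 CPM in WT females. Its log2 value was -0.82 ± 0.32 (adjusted p = 0.0628), and -0.49 ± 0.27 without KO female replicate 1 (adjusted p = 0.168). Ces1c gave -0.47 ± 0.21 (adjusted p = 0.0911), Ces1f -0.41 ± 0.17 (0.0682) and Ces3b -0.41 ± 0.18 (0.0781). Ces1e, known as egasyn and for holding beta-glucuronidase in the endoplasmic reticulum, had 108, 128 and 126 CPM in KO females, against 163, 167 and 151 CPM in WT females, a log2 value of -0.41 ± 0.27 (adjusted p = 0.234).

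**Figure D4:**
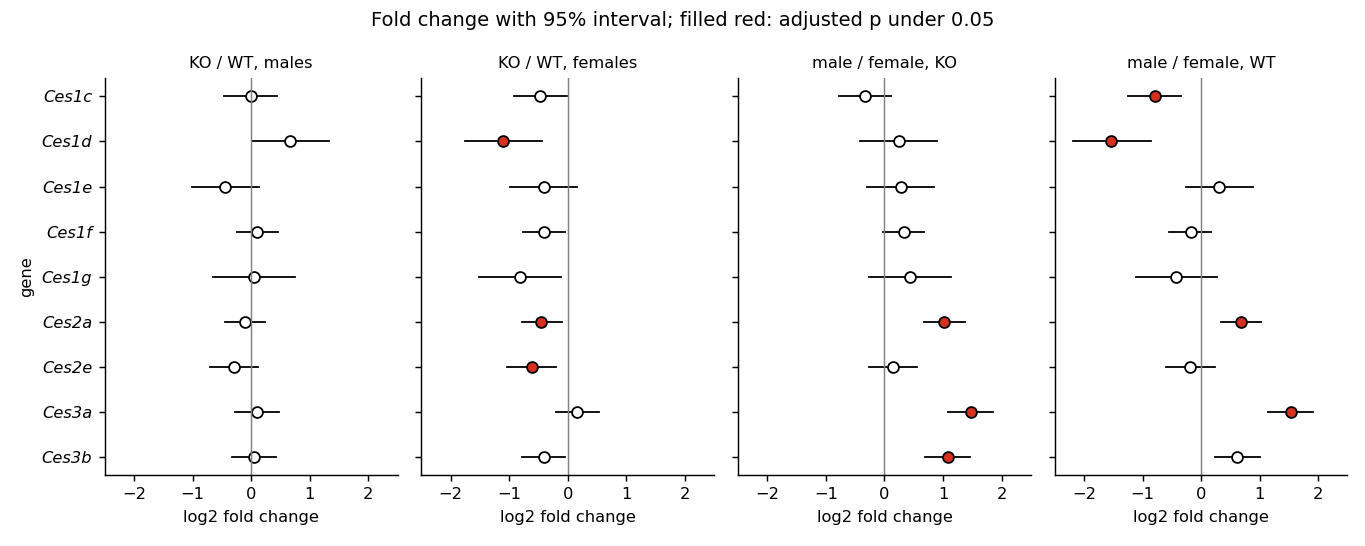
Log2 fold change on the x axis of each of the 9 genes (rows), with 95% intervals from the quasi-likelihood fit, for KO over WT in males and in females and for male over female in KO and in WT. Filled points passed an adjusted p under 0.05. Ces1d, Ces2a and Ces2e are filled in the female KO over WT panel, none in the male one, and Ces3a and Ces2a are filled in both male over female panels.

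Library composition also differed between the female groups. The length slope, which is the slope of a library's log2 CPM deviations on log2 gene length over 8949 genes, ran from 0.0839 to 0.3073 in KO females, against -0.2485 to -0.164 in WT females. In males it ran from -0.1651 to 0.1869 in KO, against -0.1726 to 0.1199 in WT. With each library's slope as a covariate, 0 of the 9 genes and 9 genes in all were called in females. The slopes of KO and WT females did not overlap, so this fit cannot tell the slope and the line apart. Ces1d stood at a log2 value of -0.35 ± 0.40 (adjusted p = 0.843) and Ces1e turned to 0.18. Ces2a shrank to -0.33 ± 0.22 and Ces1f to -0.24 ± 0.23, and Ces3a turned to -0.09 ± 0.24. Ces1g (-1.34 ± 0.52), Ces2e (-0.68 ± 0.28), Ces1c (-0.49 ± 0.32) and Ces3b (-0.47 ± 0.25) kept or exceeded their values with wider errors. Ces1g and not Ces1d thus had the lowest value in that fit. With the length trend taken out of each library, only Ces1d was called, at -0.79 ± 0.28 (adjusted p = 0.0471). Under this setting Ces2a moved to -0.13 ± 0.15 and Ces2e to -0.39 ± 0.18. Over all genes, 5116 were called in females, but 4 without KO female replicate 2 and 5 without WT female replicate 2. All 9 members have annotated lengths between 2189 and 3285 bases. Pearson's r of their log2 CPM with the slope over the 12 libraries ran from -0.683 for Ces1f to 0.136 for Ces3a. After the group means were taken out it ran from -0.545 for Ces1e to 0.479 for Ces3a.

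**Figure D5:**
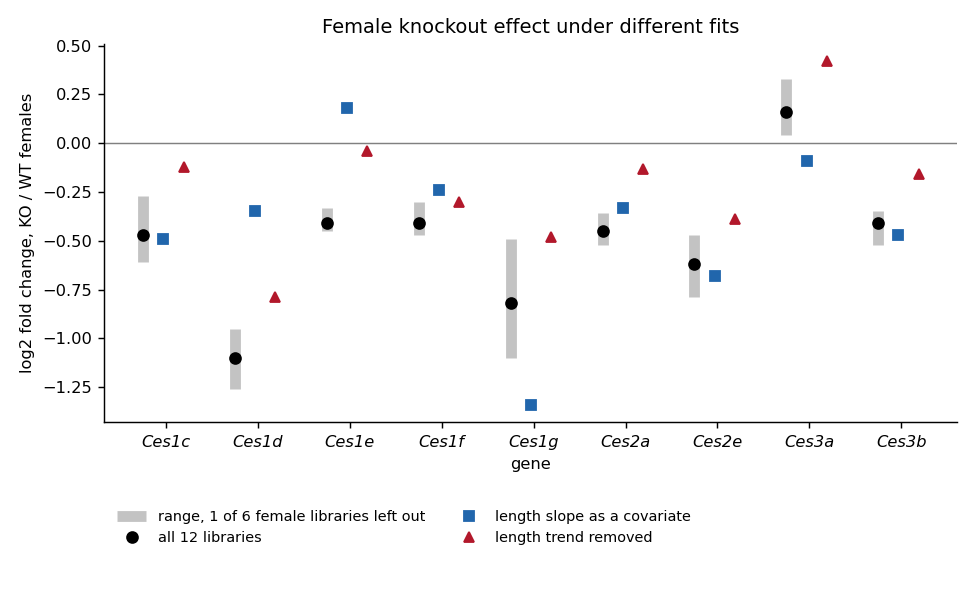
Log2 fold change, KO over WT females, on the y axis for each gene on the x axis, from all 12 libraries (circles), with the length slope as a covariate (squares) and with the length trend removed (triangles). Grey bars span the fits that leave out 1 of the 6 female libraries. Ces1d runs from -1.26 to -0.95 over the grey bar and stands at -0.35 with the slope as a covariate, and Ces3a stands at 0.16 with all 12 libraries and at -0.09 with the slope as a covariate.

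Markers of other cells were also called in this comparison, where 17.7% of all genes tested were called higher and 18.8% lower. Of the Kupffer cell and macrophage markers, 4 of 7 were called higher. The 7 summed to 164 to 193 CPM in KO females, against 114 to 168 CPM in WT females. Those not called were Clec4f (-0.08 ± 0.25), Vsig4 (0.03 ± 0.29) and Adgre1 (0.49 ± 0.31). Of the sinusoidal endothelial markers, 3 of 7 were called higher. The 7 summed to 183 to 242 CPM in KO females, against 143 to 178 CPM in WT females. Those not called were Lyve1 (0.32 ± 0.41), Kdr (0.58 ± 0.25), Clec4g (-0.40 ± 0.25) and Oit3 (-0.13 ± 0.26). The 5 cholangiocyte markers were mixed, with Spp1 (-0.69 ± 0.19, adjusted p = 0.0188) and Krt7 (-1.41 ± 0.49, adjusted p = 0.0383) called lower and Sox9 (1.39 ± 0.48, adjusted p = 0.0374) called higher. They summed to 22.3 to 34 CPM in KO females, against 42.2 to 49.9 CPM in WT females, most of it Spp1, at 25.1 CPM in KO females and 40.3 CPM in WT females. Of the stellate cell markers, 2 of 6 were called higher and 1 lower, with sums of 226 to 266 CPM in KO females, against 239 to 279 CPM in WT females. Of 4 lymphocyte and neutrophil markers tested, 2 were called higher. The list summed to 13.1 to 34.1 CPM in KO females, against 9.26 to 15.2 CPM in WT females. Those called were Cd79a and Ighm, whose KO female libraries spread widely, at 2.24 ± 1.58 and 11.7 ± 8.21 CPM (SD). Ptprc (-0.04 ± 0.32) and S100a9 (-1.62 ± 0.90) were not called. None of the 7 hepatocyte markers was called, and they summed to 96400 to 98300 CPM in KO females, against 85500 to 114000 CPM in WT females. The 6 kidney, intestine and adipose markers summed to 35.5 to 50.1 CPM in KO females, against 84.1 to 153 CPM in WT females, nearly all of it Fabp2, an intestinal fatty acid binding protein. Fabp2 averaged 43.6 CPM in KO females and 124 CPM in WT females (-1.51 ± 0.49, adjusted p = 0.0303). The kidney marker Umod was at 0 in all 12 libraries, and Slc34a1 was at 0 in KO females and averaged 0.0214 CPM in WT females. Vil1 averaged 0.384 CPM in KO females and 0.121 in WT females, Adipoq 0.0521 and 0.127, and Plin1 0.0309 and 0. Of this list only Fabp2 passed the filter on low counts. Of the acinar markers Cela1 was called lower, at 23.7 CPM in KO females and 61.6 CPM in WT females (-1.38 ± 0.43, adjusted p = 0.0268). The acinar markers Prss2 (0.119 CPM in KO females and 0.579 in WT females) and Cpa1 (0.0593 and 0.515) were too low to be tested. Of 3 erythroid markers none was called. The part of these markers in the carboxylesterase values was not tested.

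In males none of the 9 carboxylesterases was called between the lines by edgeR or by DESeq2, where 0.0571% of all genes were called by edgeR. At an unadjusted p under 0.05, 1 of the 9 (Ces1d) and 4.84% of all genes passed. No member's groups lay apart, where 9.62% of all genes did, and without TMM only those of Ces1d did, at 488.7 to 1055 CPM in KO males, against 408 to 460.8 CPM in WT males. Ces1d had the largest value, 0.66 ± 0.30 on the log2 scale (adjusted p = 1), from 712 ± 387 CPM in KO males and 450 ± 37.5 CPM in WT males. That value rested on KO male replicate 2 and was 0.12 ± 0.21 without it. The length slope of that library was -0.1651, against 0.0896 and 0.1869 in the other KO males, and its part in the value was not tested. Ces1e had 156, 174 and 108 CPM in KO males, against 272, 116 and 208 CPM in WT males, and Ces2e had 152, 125 and 123 CPM in KO males, against 171, 145 and 174 CPM in WT males. Both lower values, -0.44 ± 0.27 and -0.30 ± 0.19, missed the threshold (adjusted p = 1). The 95% intervals show the sizes that the male comparison leaves possible. They were -0.45 to 0.24 for Ces2a, -0.27 to 0.48 for Ces3a, -0.33 to 0.42 for Ces3b and -0.25 to 0.46 for Ces1f. Those of Ces1c (-0.46 to 0.44), Ces1d (0.01 to 1.32), Ces1e (-1.01 to 0.13), Ces1g (-0.66 to 0.74) and Ces2e (-0.71 to 0.12) were wider.

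Averaged over the sexes, only Ces2e was called, at -0.46 ± 0.14 (adjusted p = 0.0428), where 15.1% of all genes were called in either direction. With the length slope as a covariate its value was as large, at -0.49 ± 0.18, but not called (adjusted p = 0.274). It was not called in 10 of the 12 fits that leave out 1 library, where its value ran from -0.54 to -0.38. It stayed called without KO male replicate 2 (adjusted p = 0.0272) and without WT male replicate 2 (adjusted p = 0.0241).

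The difference of the knockout effect between males and females was tested directly. No member passed, and 0 of 14003 genes did by edgeR (0%), with 3145 genes (22.5%) at an unadjusted p under 0.05, among them 2 members, Ces1d and Ces1f. Ces1d had the largest difference, 1.76 ± 0.43 on the log2 scale (adjusted p = 0.204), followed by Ces1g at 0.86 ± 0.46 (adjusted p = 0.265). DESeq2 called Ces1d (adjusted p = 0.026) among 83 genes. Without KO male replicate 2 the Ces1d difference was 1.22 ± 0.28 (adjusted p = 0.435). The female result is thus not shown to be particular to females.

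The remaining carboxylesterase genes gave a mixed picture. Of 11 listed, 5 had enough counts to be tested, and Ces1h, Ces2f and Ces5a had 0 counts in all 12 libraries. Ces1b, whose coding sequence is 88.752% identical to that of Ces1c, averaged 227 ± 36.3 CPM in KO females and 439 ± 56.6 CPM in WT females, a log2 value of -0.95 ± 0.25 (adjusted p = 0.0156). It was lower in WT males, at 169 ± 38.3 CPM, than in WT females by -1.38 ± 0.25 (adjusted p = 0.00478). Ces2c averaged 6.72 ± 2.69 CPM in KO females and 17.6 ± 1.57 CPM in WT females (-1.39 ± 0.33, adjusted p = 0.0142).

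Ces2c, Ces2b and Ces4a were called higher in males than in females in both lines. Ces2c averaged 56.9 ± 19.9 CPM in KO males against 6.72 ± 2.69 CPM in KO females, and 79.7 ± 23.5 CPM in WT males against 17.6 ± 1.57 CPM in WT females. Ces2b had 42 to 134 counts in KO male libraries against 0 to 2 in KO female libraries, and 55 to 150 in WT male libraries against 0 to 2 in WT female libraries, too few in females for a fold. Ces4a averaged 6.35 ± 1.17 CPM in KO males and 0.821 ± 0.144 CPM in KO females. Ces2g, the fifth gene tested, averaged 40.2 to 44.6 CPM in the 4 groups and was called in none of these comparisons.

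Genes tied to carboxylesterase function were counted by list, and each female count below is to be read against the 17.7% of all genes that rose and the 18.8% that fell, at a median of 0.05. In females, of 24 other liver ester and lipid hydrolases tested, 9 fell and 3 rose in KO relative to WT, at a median of -0.23. Esd (S-formylglutathione hydrolase) fell by 1.10 ± 0.23 (adjusted p = 0.0139). Cmbl (an esterase that activates the prodrug olmesartan medoxomil in humans) gave -1.16 ± 0.26 (adjusted p = 0.014) and Pon2 (a paraoxonase) -0.95 ± 0.23 (adjusted p = 0.0145). Of 19 triglyceride storage and VLDL genes, 6 fell and 3 rose, at a median of 0. Among these Abhd5, the activator of adipose triglyceride lipase, fell by 1.05 ± 0.21 (0.0139), Sar1b, a GTPase of lipoprotein export, fell by 1.79 ± 0.38 (0.0139), and Hsd17b13, a lipid droplet protein, rose by 0.85 ± 0.20 (0.0142), with adjusted p-values in parentheses.

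Of 16 regulators reported to act on carboxylesterase genes, 5 rose and 1 fell in KO females, at a median of 0.59. Stat5b, which carries the growth hormone signal, rose by 1.08 ± 0.22 (adjusted p = 0.0139), the retinoid X receptor Rxra by 1.72 ± 0.42 (adjusted p = 0.0146) and the fatty acid sensor Ppara by 1.69 ± 0.44 (adjusted p = 0.0157). Of 9 endoplasmic reticulum retention and binding partners, 2 fell, the disulfide isomerase P4hb at -0.69 ± 0.21 (adjusted p = 0.0231) and the chaperone Hspa5 at -0.53 ± 0.19 (adjusted p = 0.0464). Of 12 classic target genes of the drug sensors CAR and PXR, 2 rose and 2 fell. The transporters Abcc2 (1.41 ± 0.34, adjusted p = 0.0143) and Abcc3 (0.87 ± 0.24, adjusted p = 0.0174) were higher, and Alas1, the first enzyme of heme synthesis, was lower (-1.92 ± 0.60, adjusted p = 0.0267). In males 0 genes of these 5 lists were called by edgeR. The length slope given above differed between the same female groups, and its part in these counts was not tested.

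Between the sexes few members of these lists were called, where 2.95% of all genes were called higher and 2.45% lower in KO, and 2.1% higher and 2.39% lower in WT. In KO, males over females, 2 hydrolases rose and 1 fell, 2 triglyceride genes rose and 2 fell, 1 binding partner rose, and 2 drug sensor targets rose and 2 fell. In WT the same lists gave 2 and 3 hydrolases, 1 and 2 triglyceride genes, 0 binding partners, and 1 and 2 drug sensor targets, each higher and lower. No regulator was called between the sexes in KO or in WT. Bche, butyrylcholinesterase, was lower in WT males (-0.98 ± 0.16, adjusted p = 0.00196), and Abhd2, an acylglycerol lipase, was lower in KO males (-2.12 ± 0.52, adjusted p = 0.0294). Ephx1, the microsomal epoxide hydrolase, was higher in KO males (0.83 ± 0.22, adjusted p = 0.043) and in WT males (1.03 ± 0.22, adjusted p = 0.014). Tm6sf2, which acts in VLDL lipidation, was lower in KO males (-1.98 ± 0.30, adjusted p = 0.0012) and in WT males (-1.80 ± 0.30, adjusted p = 0.00234) than in females of their line. Fitm1, of the triglyceride list, was higher in KO males (2.44 ± 0.46, adjusted p = 0.00708) and in WT males (2.15 ± 0.44, adjusted p = 0.0112). Abhd5 was higher in KO males (1.02 ± 0.21, adjusted p = 0.011), and Plin4, a perilipin, was lower in WT males (-2.37 ± 0.56, adjusted p = 0.0288). Plin4 was low throughout, at 0.203 ± 0.164 CPM in WT males and 1.05 ± 0.321 CPM in WT females. The binding partner called in KO was Hspa5 (0.75 ± 0.19, adjusted p = 0.0372).

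The drug sensor targets called between the sexes went both ways. Cyp2b10, a CAR target P450, was higher in KO males (5.98 ± 0.68, adjusted p = 0.00011) and in WT males (2.91 ± 0.58, adjusted p = 0.0095). It averaged only 0.353 ± 0.27 CPM in KO females and 1.5 ± 1.52 CPM in WT females, so the sizes of these folds are uncertain. The efflux transporter Abcb1a was lower in KO males (-3.63 ± 0.43, adjusted p = 0.000167) and in WT males (-2.57 ± 0.42, adjusted p = 0.00248). The uptake transporter Slco1a4 was also lower in KO males (-1.79 ± 0.26, adjusted p = 0.000816) and in WT males (-2.39 ± 0.26, adjusted p = 7.24e-05). Among the hydrolases, Ephx2, the soluble epoxide hydrolase, averaged 637 ± 32.9 CPM in KO males and 336 ± 20.8 CPM in KO females (0.92 ± 0.15, adjusted p = 0.00217), and 653 ± 57.6 CPM in WT males and 382 ± 21.3 CPM in WT females (0.77 ± 0.15, adjusted p = 0.00765).

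Genes around the clusters were counted in the same way. Of 61 genes tested within 1 Mb of the members and outside the family, 1 rose and 2 fell in KO males relative to KO females, and 0 rose and 1 fell in WT males relative to WT females. Mt1, a metallothionein, was lower in males in both, at 23.2 CPM in KO males and 508 CPM in KO females, and at 58.2 CPM in WT males and 520 CPM in WT females. Mt2, another metallothionein, was also lower in KO males (-4.33 ± 0.87, adjusted p = 0.00989), and Cbfb, a subunit of core binding factor, was higher in KO males (0.77 ± 0.16, adjusted p = 0.0122). In the female KO over WT comparison 12 of the 61 rose and 9 fell, near the shares of all genes (17.7% and 18.8%). Those of smallest adjusted p were Ranbp10 (1.23 ± 0.22, adjusted p = 0.0132), Ciao2b (-1.28 ± 0.28, adjusted p = 0.014) and Rpl10-ps5 (-1.07 ± 0.26, adjusted p = 0.0143).

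Likeness to other genes was measured as Pearson's r of log2 CPM over the 12 libraries against 10252 protein-coding genes outside the family. The libraries share sex and line, so high values can trace the group means. The genes named for each member are the closest of these 10252, and how high such values run by chance was not tested. For Ces3a the closest were Aox3 (r = 0.992) and Hsd3b2 (0.990), for Ces2a Ugt2b1 and Abcg2 (both 0.983), for Ces3b Keg1 (0.965) and Srd5a1 (0.956), for Ces1d Tk1 (0.960) and Faap24 (0.920), and for Ces1c Pdk1 (0.952) and Sqor (0.945). For Ces1f they were Mycbp (0.939) and Tspan12 (0.937), for Ces2e Galm (0.935) and Ap3m1 (0.928), for Ces1e Hltf (0.895) and Tmem165 (0.876), and for Ces1g Itga8 (0.878) and Gca (0.862). Among the members themselves, Ces2a with Ces3b (0.938), Ces2a with Ces3a (0.885) and Ces3a with Ces3b (0.876) ran together over the 12 libraries. After the group means were taken out these fell to 0.264, 0.494 and 0.263. Not all pairs fell. Ces1g with Ces2e gave 0.842 before and 0.836 after, and Ces1d with Ces1f gave 0.665 before and 0.828 after.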

How the data were processed

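The authors deposited 1 table of raw counts per gene for the 12 libraries, with gene lengths and mm39 positions. HISAT2 2.0.5, DESeq2 and mm39 appear in the submitters' processing notes, with no role. How reads were counted, with strand or without, was not given in the sources used here. RNA was poly(A)-selected and primed with random hexamers, per the labels' protocols.

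Counts were fitted with edgeR 4.0.16 (R 4.3.3) on all 12 libraries: filterByExpr (14003 of 56748 genes, 99.9% of counts), TMM, 1 mean for each group, quasi-likelihood F tests with Benjamini-Hochberg adjustment over the genes tested, in 6 contrasts. Standard errors come from the F statistic. log2 CPM used a prior count of 2. Alternatives included DESeq2 1.42.0. The fit was also run on simulated counts in which no length slope was built in. That run therefore cannot speak to calls made where the slope differs between groups. Chi-square values per degree of freedom between replicates were 15.8 to 141, above sampling noise.

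The 9 members and the lists were chosen with earlier results of these data known. All members are named, and of each other list up to 3 called genes of smallest adjusted p in the female knockout comparison and in each sex comparison. Marker genes were named after their values were seen.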

Additional observations from a re-analysis of the deposited data

How the results depend on the processing

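Of 414 fold changes of the 9 genes under alternatives other than leaving out a library, 371 kept their direction and side of the threshold, 20 fell below it, 12 passed it and 11 turned. The causes were not tested. Chosen after seeing the data, the log2 ratio of the summed level was -0.23 in KO over WT females with library size only, against -0.46, and ran from -0.57 to -0.30 with a library left out. The order of the members per kilobase was the same with raw library sizes, 9 of 9 in each group.

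Members called. In females, KO over WT (3 members), the count was 6 with DESeq2, 5 with only the groups compared in the fit, 1 with library size only, 1 with the length trend removed and 0 with the length slope as a covariate. As the mean of the sexes (1 member) it was 2 with DESeq2 and 0 with library size only, with the length slope and with the length trend removed. For the difference between sexes (0 members) it was 1 with DESeq2 and 1 without the filter on low counts. In WT, male over female (4 members), it was 2 with only the groups compared. Leaving out 1 library gave 0 to 2 members in females, 0 in males, 0 to 2 for the mean, 0 for the difference, 3 in KO and 1 to 2 in WT for male over female.

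Genes called in all. In females (5116 genes) there were 9 with the length slope. In males (8) there were 34 with DESeq2, 101 without the filter, 1 with only the groups compared and 15 with the length slope. For the mean (2111) there were 3959 with DESeq2, 3900 without the filter and 22 with the length slope. For the difference (0) there were 83 with DESeq2, 1451 without the filter and 3 with the length slope. Male over female gave 1226 with DESeq2 and 1700 without the filter in WT (629), and 1395 and 1694 in KO (756). Leaving out 1 library gave 4 to 4227 in females, 5 to 18 in males, 18 to 5594 for the mean, 0 to 2 for the difference, 440 to 953 in KO and 379 to 781 in WT.

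The replicate numbers share no stated source, so the main fit did not pair the samples by them. Same-numbered deviations from the group means correlated from -0.79 to 0.438. With 3 libraries in each group these values cannot tell whether the numbers mark a shared source. With the replicate block, 1 member and 3365 genes were called in females, 0 members and 23 genes for the mean, and 2 members and 415 genes in WT, male over female.

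Values that turned. For the Ces1e difference, 0.01 with RLE size factors and 0.01 with DESeq2. For Ces1c in males, 0.02 with library size only and 0.04 with the length trend removed. With the length slope, Ces1e 0.18 and Ces3a -0.09 in females, Ces1g -0.08 in males, Ces1d 0.16 and Ces3a -0.01 for the mean, Ces3a 0.15 for the difference and Ces1d -0.16 in KO, male over female. With a library left out, 12 of 432 turned. The Ces1e difference ran from -0.31 to 0.29 and the Ces3a difference from -0.23 to 0.06. In males, Ces1c ran from -0.07 to 0.07, Ces1g from -0.24 to 0.23 and Ces3b from -0.05 to 0.20. In KO, male over female, Ces1d ran from -0.30 to 0.47 and Ces2e from -0.01 to 0.31. A fit of only the groups compared is the same fit for the mean and the difference, which use all 4 groups.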
